A study of Mus musculus with 6 samples.

Results

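Contractile vascular smooth muscle cells were taken from the lower abdominal muscle (LAM) of mice as barcodes with at least 1000 unique molecular identifiers (UMIs), at least 3 UMIs of Myh11, at least 5 of Acta2, and no UMI of the endothelial genes Pecam1 and Cdh5, the fibroblast gene Pdgfra or the pericyte gene Kcnj8. This rule kept 873 of the 63647 barcodes in the series, or of 59236 with at least 1000 UMIs. The cells were thus chosen by their own UMIs of 6 genes, and those genes carry no test. The 3 WT mice held 155, 144 and 200 of these cells and the 3 Aromhum mice 125, 107 and 142. Aromhum mice carry the human aromatase gene CYP19A1, driven by its own human promoters, and so make estrogen from androgen in tissues where the mouse gene is silent. All 6 were FVB/N males of 9 to 10 weeks. The Aromhum mice were labelled as having scrotal hernia and the WT mice, their littermates, as controls, so the inserted gene, the estrogen it makes and the hernia cannot be told apart. Each library came from the LAM of 1 mouse, dissociated with collagenase and dispase and passed through a filter that holds back muscle fibers. Single cells were counted with the 10x Genomics 3′ protocol, in which each UMI stands for 1 captured transcript. The question was how these cells, which form the muscular wall of small arteries, differ in the fibrotic muscle of Aromhum mice.

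Vascular smooth muscle cells set the diameter of arteries and arterioles. Calcium that enters through ion channels activates myosin light chain kinase, and the smooth muscle myosin encoded by Myh11 then pulls on filaments of the smooth muscle actin encoded by Acta2. Vasoactive receptors, potassium channels and cyclic nucleotides adjust this tone, and contact with endothelial cells keeps the program on through the receptor Notch3. The transcription factor SRF with its cofactor myocardin binds a motif called the CArG box near the start of many contractile genes. In injured or inflamed vessels these cells can lower contractile genes and raise matrix genes, a change known as phenotype switching. Toward the capillaries they give way to pericytes, which share Notch3 and Pdgfrb but have little Myh11.

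The CArG box was looked for on both strands in the RefSeq promoter windows of GRCm38.p6, from 250 bases before to 50 after each gene start. It lies in 1.81% of 27025 genes with a window. Of 36 contractile and cytoskeletal genes, 30 had a window, and 4 of those held the box within it. These stretches are shown because the genes belong to the program by which the cells were chosen. Capitals mark the box, and the sequences are written 5′ to 3′ on the strand of the gene.
Myl9: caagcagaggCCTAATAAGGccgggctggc
Myl6: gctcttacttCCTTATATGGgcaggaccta
Filip1l: atgccgcgcgCCTTATAAGGctgagcggtg
Vcl: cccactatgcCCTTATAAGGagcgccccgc
Myl9 and Myl6 encode light chains of myosin, Filip1l a filamin-interacting protein and Vcl vinculin, which ties actin to the cell membrane. The stretch of Myl9 is at chr2:156775293-156775322 on the plus strand, with the box starting 161 bases before the gene start. Myl6 is at chr10:128493040-128493069 on the minus strand, and its box starts 50 bases before the start. Filip1l is at chr16:57549170-57549199 and Vcl at chr14:20929161-20929190, both on the plus strand, with boxes 62 and 227 bases before the start. All 4 stretches lie upstream of the transcribed gene. A match describes the letters of the window and is no evidence of binding.

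The cells had a median of 3903 to 5549.5 UMIs and 1524 to 1926 genes per cell in a mouse, and their UMIs summed to between 458374 and 1103146 per mouse. UMIs of other cell types were present in some libraries. The summed level of 12 skeletal muscle fiber genes was 1702, 4702 and 116 CPM, the UMIs of a gene per 1000000 UMIs of these cells, in WT mice and 1432, 54.5 and 121 in Aromhum mice, so WT replicates 1 and 2 and Aromhum replicate 1 stood above the rest. The 10 macrophage genes summed to 101, 41.4 and 169 CPM in WT mice and 2298, 674 and 352 in Aromhum mice, highest in Aromhum replicate 1 and higher in each Aromhum mouse than in any WT mouse. A UMI of the fibroblast gene Dcn was found in 320 of the 873 cells, and 29 cells had over 10. In all, 471 barcode sequences occurred in more than 1 library, but none of them was a smooth muscle cell in both. Scrublet, which calls doublets, marked no barcode of any WT mouse and so had not worked there.

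The markers fit the label. Tagln, an actin-binding protein of smooth muscle that the rule did not use, averaged 11881 ± 2357 CPM (SD over the 6 mice) against 2026 ± 502 in pericytes and 549.8 ± 195 in endothelial cells of the same libraries. Cnn1, the thin-filament protein calponin, was at 405 ± 117, 20.4 ± 20.9 and 0.255 ± 0.278 CPM in the 3 cell types. Lmod1, which nucleates actin filaments, was at 425 ± 109, 41.8 ± 13.9 and 1.27 ± 0.493 CPM. Thus these contractile genes were high in every mouse in the cells the rule chose and lower in the others. Notch3 did not separate the mural cells, at 341 ± 45.6 CPM in smooth muscle cells and 309 ± 62.4 in pericytes, but stood far below that in endothelial cells at 9.60 ± 4.65. The pericyte genes Rgs5, Abcc9 and Higd1b were at 1273 ± 628, 46.4 ± 26.7 and 101 ± 61.1 CPM in smooth muscle cells, against 7322 ± 1594, 656 ± 189 and 547 ± 137 in pericytes. The 872 pericytes were barcodes with a Kcnj8 UMI, at least 3 of Rgs5, at most 1 of Myh11 and none of Pecam1, Cdh5 or Pdgfra. The 10537 endothelial cells had at least 2 UMIs of Pecam1, 1 of Cdh5 and none of Myh11, Pdgfra or Kcnj8. Acta2 was not limited in either set, nor Rgs5 in endothelial cells. Since the genes of a set helped choose it or go with those that did, these levels are a description without a test.

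**Figure D1:**
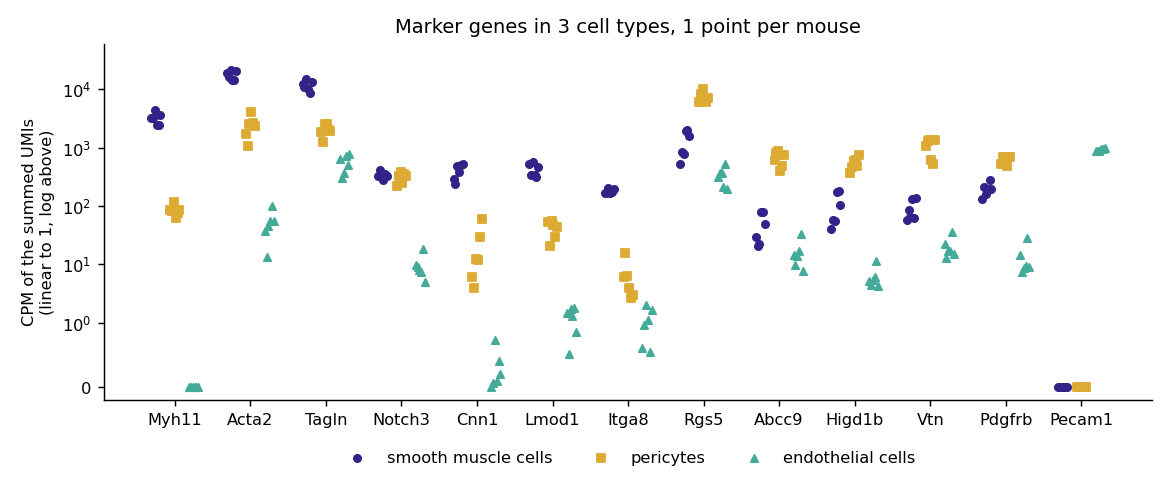
CPM of marker genes (vertical axis, linear up to 1 and logarithmic above) in smooth muscle cells (circles), pericytes (squares) and endothelial cells (triangles), 1 point per mouse. Myh11, Acta2, Tagln, Cnn1, Lmod1 and Itga8 were highest in smooth muscle cells, Notch3 was alike in both mural types, and Rgs5, Abcc9, Higd1b, Vtn and Pdgfrb were highest in pericytes.

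The cells varied along Myh11 itself. They were split by Myh11 level into low, middle and high groups of 291 cells, with median depths of 4756, 4285 and 4644 UMIs. Acta2 went with Myh11, from 10284 ± 1465 CPM (SD over 6 mice) in the low group to 24621 ± 3803 in the high group. Lmod1 followed, from 245 ± 55.4 to 633 ± 151 CPM. Acta2 also chose the cells, and the split is by Myh11, so these are descriptions. Rgs5, a brake on G protein signaling that is abundant in pericytes, ran the other way, at 2598 ± 1055, 591 ± 221 and 233 ± 145 CPM. Notch3 stayed level, at 348 ± 40.0 and 328 ± 80.6 CPM in the low and high groups. The fibroblast gene Dcn was also highest at low Myh11, at 3530.0 ± 1903 CPM against 309.6 ± 369.9 at high Myh11. Cells with low Myh11 thus carried more Rgs5 and Dcn. The low group held 33.5, 30.6 and 20.5% of the cells of the WT mice and 49.6, 41.1 and 33.8% of those of the Aromhum mice. At the edge of the rule, 83 cells with exactly 3 Myh11 UMIs held Rgs5 at 4488 CPM, 98 barcodes just outside with 2 UMIs held it at 5242 CPM, and all 873 cells at 1174 CPM. A Kcnj8 UMI alone kept out 166 barcodes, 70 of WT and 96 of Aromhum mice. A UMI of an endothelial gene or Pdgfra kept out 578, 383 of WT and 195 of Aromhum mice.

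**Figure D2:**
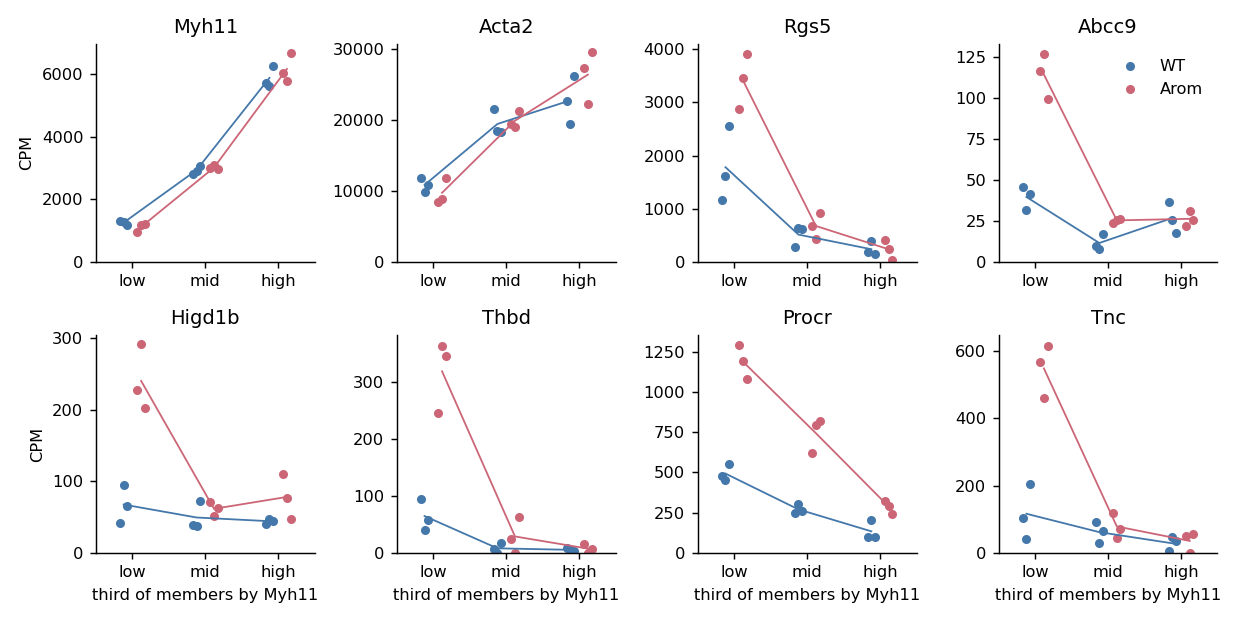
CPM of 8 genes (vertical axes) in the smooth muscle cells with low, middle and high Myh11 (horizontal axes), 1 point per mouse with lines through the genotype means, WT in blue and Aromhum (Arom) in red. Rgs5, Abcc9, Higd1b, Thbd and Tnc were highest at low Myh11, where the Aromhum mice lay above the WT mice.

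Smooth muscle cells made up 1.66, 1.5 and 2.66% of barcodes with at least 1000 UMIs in WT mice and 1.10, 0.823 and 1.68% in Aromhum mice. The means were 1.94% ± 0.631 and 1.20% ± 0.437 (SD, n = 3), and the values of Aromhum replicate 3 and WT replicate 1 overlapped. The difference of -0.739 percentage points gave p = 0.3 in a 2-sided exact permutation test, which cannot go below 0.1 with 3 mice a group. Counting error alone gave 95% Wilson intervals from 0.682 to 0.994% in the mouse with the lowest share and from 2.32 to 3.05% in the mouse with the highest. Among barcodes with at most 10% mitochondrial UMIs the order of the means turned, with 0.518% ± 0.197 in WT and 0.603% ± 0.222 in Aromhum mice. Shares of a mouse sum to a whole, so they also move with the number of other cells captured.

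Mitochondrial transcripts took a large part of the UMIs in these cells. The median percent per cell was 12, 15.4 and 13.1 in WT mice and 10.2, 10.1 and 10.7 in Aromhum mice. Every WT mouse lay above every Aromhum mouse, with means of 13.5% ± 1.75 and 10.3% ± 0.302 (SD, n = 3; exact permutation test, 2-sided p = 0.1, the smallest this design allows). In pericytes the medians ran from 8.29 to 12.5% in WT and from 6.99 to 7.99% in Aromhum mice, and in endothelial cells from 3.90 to 6.10% and from 3.97 to 4.55%. Between 94.4 and 99.1% of the smooth muscle cells of a mouse exceeded 5%, the limit the study set on cells, so nearly all of them would be removed by it.

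**Figure D3:**
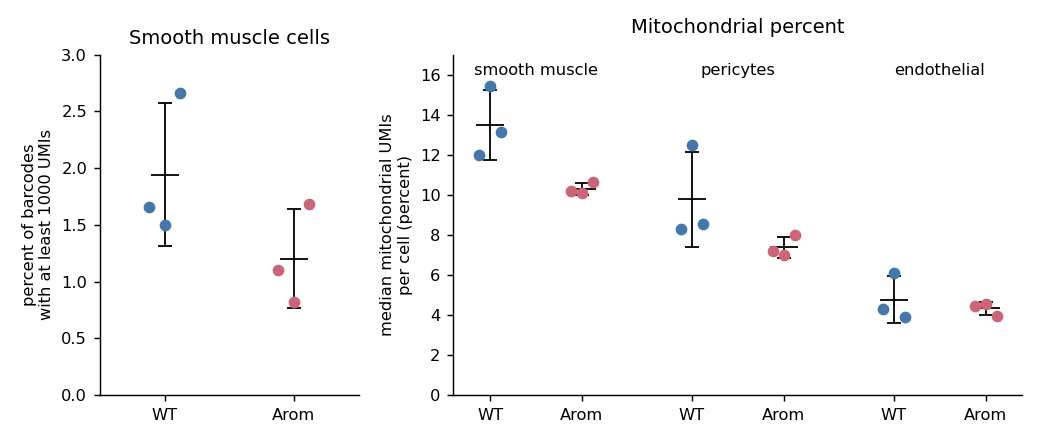
Smooth muscle cells as a percent of barcodes with at least 1000 UMIs (left) and the median percent of mitochondrial UMIs per cell in 3 cell types (right), 1 point per mouse in replicate order, with bars for mean and SD over 3 mice. The shares of the genotypes overlapped, and the mitochondrial percent of smooth muscle cells was higher in each WT mouse than in any Aromhum mouse.

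The inserted gene followed the labels. CYP19A1 had 0 UMIs in the smooth muscle cells of each WT mouse and 22, 11 and 24 in those of the Aromhum mice. This is at least 25.7-fold higher, taking 3 counts over the WT cells together as the limit that a count of 0 allows. To compare the genotypes, UMIs were summed over the smooth muscle cells of each mouse and tested in edgeR by the quasi-likelihood method, with p adjusted over all genes by Benjamini and Hochberg and a threshold of 0.05 on the adjusted p. All adjusted p values below are from this test, and normalized CPM are CPM scaled by its size factors. Of 6695 genes tested outside the rule, 88 (1.31%) passed, 78 (1.17%) higher and 10 (0.149%) lower in Aromhum mice, with a median log2 fold change of 0.0016 over all genes. All 88 had no overlap between the mice of the genotypes, as had 22.8% of all genes tested. The count rested on the cells and mice used. It was 9 without WT replicate 3, 20 without Aromhum replicate 1 and 20 without Aromhum replicate 2, 32 and 38 without WT replicates 1 and 2, and 326 without Aromhum replicate 3. In cells with at most 10% mitochondrial UMIs it was 4, with log2 fold changes for Thbd of 2.19 (adjusted p = 0.0125), for Ednrb of 2.51 (adjusted p = 0.0219) and for Has1 of -1.64 (adjusted p = 0.0463) among them. Of 35 called genes among those named by a fixed rule, 13, 11 and 6 still passed without WT replicates 1, 2 and 3, and 10, 9 and 34 without Aromhum replicates 1, 2 and 3, and all kept their direction in each of these 6 fits.

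**Figure D4:**
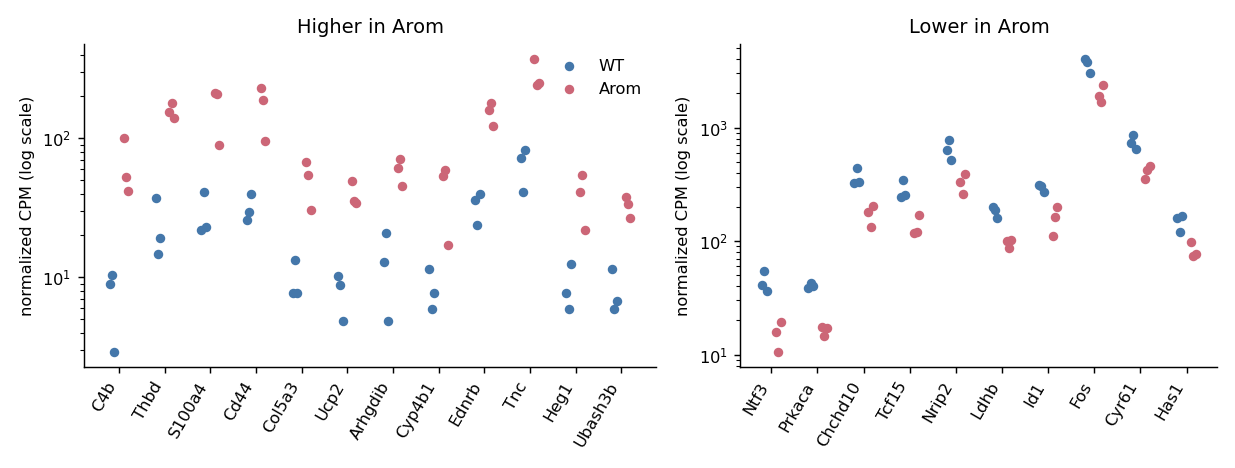
Normalized CPM (log scale) in the smooth muscle cells of each mouse for the 12 genes with the largest rise (left) and the 10 genes that fell (right) among those that passed the test, with WT in blue, Aromhum (Arom) in red and replicates in order from left to right. No gene shown overlapped between the genotypes.

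Thbd, Procr and Ednrb, which encode receptors at the cell surface, were among the genes that rose. Thbd encodes thrombomodulin, which binds thrombin and turns it toward the anticoagulant protein C pathway, and was at 37.2, 14.8 and 19.3 normalized CPM in WT and 155, 180.4 and 140.1 in Aromhum mice. The groups stood far apart (log2 fold change 2.72, SE 0.27, adjusted p = 0.000474). Procr, the receptor for protein C, named here after its values were seen, was at 289.9, 339 and 247 normalized CPM in WT and 964, 891 and 746 in Aromhum mice (log2 fold change 1.57, SE 0.18, adjusted p = 0.000745). Ednrb, the B-type receptor for the constrictor peptide endothelin, was at 35.9, 23.7 and 39.5 normalized CPM in WT and 161, 180.4 and 122 in Aromhum mice (log2 fold change 2.18, SE 0.23, adjusted p = 0.000474). All 3 genes were higher in each Aromhum mouse than in any WT mouse, and Thbd and Ednrb passed with any 1 mouse left out. Ednra, the A-type receptor, did not pass, at 80.8 ± 27.7 normalized CPM in WT and 75.8 ± 10.8 in Aromhum mice (log2 fold change -0.09, SE 0.24, adjusted p = 0.893). Both receptors of the protein C pathway were highest in cells with low Myh11. At low Myh11, Thbd was at 64.3 ± 27.8 CPM in WT and 318 ± 63.2 in Aromhum mice, against 5.19 ± 2.56 and 7.30 ± 7.31 at high Myh11. Procr ran from 492 ± 51.5 and 1187 ± 107 CPM at low to 133 ± 58.7 and 286 ± 39.4 at high Myh11.

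Of 28 vasoactive receptor and cyclic nucleotide genes tested, 2 rose, Ednrb and Rgs5, or 7.14% against 1.17% of all genes, and none fell, and the median log2 fold change of the list was -0.13. DESeq2 also called 1 member lower, Npy1r. Rgs5 was at 557, 918 and 823 normalized CPM in WT and 1937, 1896 and 1653 in Aromhum mice (log2 fold change 1.26, SE 0.19, adjusted p = 0.00691). The Aromhum mice lay close together and all above the WT mice. The other abundant members did not pass. Rgs4, which also damps G protein signaling, was at 428 ± 52.6 normalized CPM in WT and 327 ± 40.1 in Aromhum mice (log2 fold change -0.38, SE 0.17, adjusted p = 0.28). Gucy1a1, a subunit of the enzyme that answers nitric oxide, was at 398 ± 79.0 normalized CPM in WT and 286 ± 52.5 in Aromhum mice (log2 fold change -0.47, SE 0.20, adjusted p = 0.251). S1pr3, a receptor for sphingosine 1-phosphate, was at 356 ± 21.4 normalized CPM in WT and 314 ± 81.5 in Aromhum mice (log2 fold change -0.18, SE 0.19, adjusted p = 0.696).

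Pericyte markers were among the genes that rose. Of 11 tested, 3 passed, all upward: Rgs5, Abcc9 and Higd1b, or 27.3% against 1.17% of all genes. Values were above 0 for 8 of the 11 and below for 3, the lowest at -0.82, with a median log2 fold change of 0.47. At an unadjusted p under 0.05, 4 were higher and 1 lower, where 9.02% and 7.57% of all genes were. Abcc9 encodes the SUR2 subunit of the potassium channel whose pore is Kcnj8, and was at 30.8, 22.2 and 24.1 normalized CPM in WT and 78.8, 75.5 and 51.2 in Aromhum mice (log2 fold change 1.39, SE 0.25, adjusted p = 0.0135). Higd1b, a mitochondrial protein of pericytes, was at 42.3, 62.1 and 58.8 normalized CPM in WT and 173, 172 and 106 in Aromhum mice (log2 fold change 1.45, SE 0.23, adjusted p = 0.00888). The remaining markers did not pass, among them Pdgfrb at 178 ± 44.9 normalized CPM in WT and 225 ± 40.9 in Aromhum mice (log2 fold change 0.34, SE 0.21, adjusted p = 0.439) and Vtn at 73.5 ± 16.3 normalized CPM in WT and 111 ± 45.7 in Aromhum mice (log2 fold change 0.64, SE 0.30, adjusted p = 0.318). The summed level of the 12 markers was 1735 to 2672 CPM in WT mice and 3115 to 3331 in Aromhum mice, with Kcnj8 at 0 by the rule. Most of this difference was Rgs5, at 531, 856 and 774 CPM in WT and 1914, 1972 and 1591 in Aromhum mice. Without Rgs5 the sums of the genotypes overlapped. The share of smooth muscle cells with a UMI of Abcc9 or Higd1b was 23.9, 22.9 and 29.5% in WT mice and 37.6, 35.5 and 40.8% in Aromhum mice. Each Aromhum mouse lay above each WT mouse, and after thinning to 1000 UMIs the means were 8.77% ± 1.46 and 16.5% ± 5.12 (exact permutation test, 2-sided p = 0.1, the smallest possible with n = 3). In endothelial cells thinned alike, 0.865% of WT and 1.35% of Aromhum cells had an Abcc9 UMI, and 0.453% and 0.726% a Higd1b UMI.

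Cells with and without these UMIs were also looked at apart. In cells with an Abcc9 or Higd1b UMI, Thbd was at 34.0 ± 17.9 CPM in WT and 356 ± 132 in Aromhum mice. In cells without, it was at 17.4 ± 22.0 CPM in WT and 28.3 ± 20.9 in Aromhum mice, and the mice of the genotypes overlapped. Whether the genotype difference itself differed between the sets was not tested. Rgs5 was at 1748 ± 789 CPM in WT and 3721 ± 806 in Aromhum mice in the first set and 347 ± 57.1 CPM in WT and 548 ± 56.6 in Aromhum mice in the second. Tnc and Tmsb4x were higher in each Aromhum mouse than in any WT mouse in both sets, with Tnc at 31.3 ± 7.17 CPM in WT and 125 ± 73.9 in Aromhum mice and Tmsb4x at 1725 ± 305 CPM in WT and 4147 ± 1546 in Aromhum mice among cells without. Myh11 was at 3688 ± 672 CPM in WT and 2462 ± 765 in Aromhum mice in cells with these UMIs and at 3644 ± 725 CPM in WT and 3079 ± 666 in Aromhum mice in cells without. Tested on the cells without an Abcc9 or Higd1b UMI alone, the log2 fold change was 0.73 (adjusted p = 0.858) for Thbd, 1.59 (adjusted p = 0.0542) for Ednrb and 1.94 (adjusted p = 0.1) for Tnc, and 9 genes passed in all, among them Lgals3 at 2.08 (adjusted p = 0.0073) and Ucp2 at 2.65 (adjusted p = 0.0164). Under stricter thresholds of at least 10 Myh11 and 20 Acta2 UMIs, it was 3.25 (adjusted p = 0.0043) for Thbd, 1.98 (adjusted p = 0.00125) for Tnc and 1.41 (adjusted p = 0.0489) for Ednrb, and 0.86 (adjusted p = 0.501) for Rgs5. The split uses transcripts that were themselves higher in Aromhum mice, so it is a description of these cells.

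Some matrix genes rose. Of 37 interstitial matrix and phenotype switch genes tested, 10 rose and none fell, or 27.0% against 1.17% of all genes. The median log2 fold change of the list was 0.96, and 34 of its 37 members had a value above 0. Tnc encodes tenascin C, a matrix glycoprotein of wounded tissue, and was at 71.8, 41.4 and 82.9 normalized CPM in WT and 374, 243 and 249.7 in Aromhum mice (log2 fold change 2.12, SE 0.26, adjusted p = 0.002). Its lowest Aromhum value was over the highest WT value by a wide margin, and it passed with any 1 mouse left out. Among collagens, Col5a3 was at 7.70, 13.3 and 7.71 normalized CPM in WT and 67.8, 54.5 and 30.5 in Aromhum mice (log2 fold change 2.40, SE 0.37, adjusted p = 0.00846). Col5a3 had so few UMIs in WT mice that it entered the test only through the Aromhum mice. Col5a1 was at 19.8 ± 7.34 normalized CPM in WT and 57.9 ± 11.5 in Aromhum mice (log2 fold change 1.52, SE 0.29, adjusted p = 0.0198), and Col6a1, a chain of the microfibrillar collagen VI, at 66.3 ± 26.3 normalized CPM in WT and 189 ± 47.3 in Aromhum mice (log2 fold change 1.48, SE 0.27, adjusted p = 0.0261). These chains were at low levels in WT cells and rose in every Aromhum mouse above the WT range. Each of these chains was also higher in each Aromhum mouse than in any WT mouse in pericytes and in endothelial cells. Tnc was too in endothelial cells but overlapped in pericytes. The summed level of the list in pericytes was 21991 to 26988 CPM in WT and 34735 to 36221 in Aromhum mice. In endothelial cells it was 13136 to 15211 CPM in WT and 17073 to 18828 in Aromhum mice. Other members of the list that do not encode matrix rose too in smooth muscle cells. Lgals3, the glycan-binding protein galectin-3, was at 112, 106 and 125 normalized CPM in WT and 555, 277 and 295 in Aromhum mice (log2 fold change 1.71, SE 0.25, adjusted p = 0.00906). S100a4, a calcium-binding protein of motile cells, was at 28.8 ± 10.9 normalized CPM in WT and 170.0 ± 70.2 in Aromhum mice (log2 fold change 2.57, SE 0.41, adjusted p = 0.0286). Its relative S100a6 was at 1454 ± 279 normalized CPM in WT and 2830.4 ± 432 in Aromhum mice (log2 fold change 0.96, SE 0.17, adjusted p = 0.0157). Once cells with UMIs of other cell types were left out, Lgals3 had a log2 fold change of 1.06 (adjusted p = 0.0129). S100a4, at 2.37 (adjusted p = 0.203), and S100a6, at 0.61 (adjusted p = 0.287), did not pass there. The remaining called members were Col6a3, Mmp14 and Adamts4, with log2 fold changes of 1.09, 1.17 and 1.25.

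Vim, Sparc and Dcn, other abundant members of the matrix list, did not pass the test. Vim, the intermediate filament vimentin, was at 3230.3, 2365 and 3635 normalized CPM in WT and 5724, 2962 and 4377 in Aromhum mice (log2 fold change 0.50, SE 0.24, adjusted p = 0.322). Sparc, a collagen-binding protein, was at 1206, 1240.4 and 1263 normalized CPM in WT and 3253, 1766 and 1651 in Aromhum mice (log2 fold change 0.85, SE 0.23, adjusted p = 0.102), highest in Aromhum replicate 1. Dcn, the fibroblast proteoglycan decorin, was at 2018 ± 548 normalized CPM in WT and 1181 ± 458 in Aromhum mice (log2 fold change -0.77, SE 0.32, adjusted p = 0.29). Of 10 fibroblast markers tested, 0 were called by edgeR with no replicate block, and 1 was called by DESeq2. At an unadjusted p under 0.05, 1 of them was higher and 1 lower, where 9.02% of all genes were higher and 7.57% lower, or 16.6% in either direction. Their median log2 fold change was 0.83, near that of the matrix list, with 7 of 10 values above 0, and their summed level was 2945 to 4632 CPM in WT mice and 2865 to 5758 in Aromhum mice. Their part in the rise of the matrix genes was not tested beyond leaving out cells with UMIs of macrophage, muscle fiber and fibroblast genes, after which 6 of 26 members of the matrix list tested rose, or 23.1% against 1.83% of all genes in that fit. Tnc, Col6a1 and Lgals3 passed there, and Col5a1 and Col5a3 did not enter that fit. With 1 mouse left out, the fewest matrix genes rose without WT replicate 3, 2 of 37, or 5.41% against 0.129% of all genes. The most rose without Aromhum replicate 3, 14 of 38, or 36.8% against 3.32%. The number was 3 without Aromhum replicate 1, or 7.89% against 0.262%. In cells with at most 10% mitochondrial UMIs it was 0 of 34, against 0.0502% of all genes, and in cells with no Abcc9 or Higd1b UMI it was 1 of 33, Lgals3, or 3.03% against 0.169%.

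The basement membrane wraps each smooth muscle cell, and elastic fibers give the vessel wall its recoil. Of 26 genes of this list, 1 rose, or 3.85% against 1.17% of all genes, none fell, and the median log2 fold change was 0.22. The gene that rose was Fbn1, which encodes the microfibril protein fibrillin-1, at 28.2, 16.3 and 31.8 normalized CPM in WT and 88.3, 62.9 and 52.4 in Aromhum mice (log2 fold change 1.37, SE 0.28, adjusted p = 0.0275). All 3 Aromhum mice were above the WT mice. Fbn1 passed in 1 of the 6 fits with a mouse left out. Under stricter thresholds on Myh11 and Acta2 its log2 fold change was 0.47 (adjusted p = 0.769). The collagen IV genes Col4a1 and Col4a2 did not pass, with log2 fold changes of 0.49 (SE 0.24, adjusted p = 0.33) and 0.18 (SE 0.21, adjusted p = 0.716), nor did the laminin gene Lamb2, 0.10 (SE 0.15, adjusted p = 0.805). Elastin, encoded by Eln, varied widely within each genotype, at 198, 114 and 499 normalized CPM in WT and 322, 203 and 357 in Aromhum mice (log2 fold change 0.12, SE 0.62, adjusted p = 0.95).

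Inflammatory genes were mostly higher in Aromhum cells, but few passed the test. Of 23 tested, 2 rose and none fell, or 8.70% against 1.17% of all genes. Their median log2 fold change was 1.13, and 1 of 23 had a value below 0, against 49.9% of all genes tested. C4b, a component of the complement cascade, was at 8.98, 10.3 and 2.89 normalized CPM in WT and 101, 52.4 and 41.4 in Aromhum mice (log2 fold change 3.19, SE 0.47, adjusted p = 0.0112). Il1r1, the receptor for interleukin 1, was at 79.5, 50.3 and 73.2 normalized CPM in WT and 145, 180.4 and 128 in Aromhum mice (log2 fold change 1.14, SE 0.21, adjusted p = 0.0158). Both genes were higher in each Aromhum mouse than in any WT mouse, and so they were in endothelial cells. In pericytes C4b was also higher in each Aromhum mouse, while Il1r1 overlapped. The summed level of the inflammatory list in endothelial cells was 7472 to 8998 CPM in WT and 10598 to 13192 in Aromhum mice. In pericytes these sums overlapped. C4b had so few UMIs in the smooth muscle cells of WT mice that it entered the test only through the Aromhum mice. The neutrophil chemokines Cxcl1 and Cxcl2 and the monocyte chemokine Ccl2 were dominated by Aromhum replicate 1, with Cxcl1 at 754, 342 and 813 normalized CPM in WT and 3745, 956 and 1174 in Aromhum mice (log2 fold change 1.62, SE 0.73, adjusted p = 0.374). Ccl2 was at 396, 291 and 289 normalized CPM in WT and 2463, 824 and 564 in Aromhum mice (log2 fold change 1.98, SE 0.66, adjusted p = 0.269). Cxcl2 was at 250.2, 20.7 and 142 normalized CPM in WT and 2067, 709 and 289.9 in Aromhum mice (log2 fold change 2.88, SE 1.20, adjusted p = 0.347). None of these chemokines passed, although no Aromhum value was under a WT value. Nfkbia, the inhibitor of NF-kappa B, did not pass either, at 642 ± 147 normalized CPM in WT and 1272 ± 676 in Aromhum mice (log2 fold change 0.99, SE 0.41, adjusted p = 0.304). Of 4 macrophage markers tested, 0 were called by edgeR with no replicate block, 2 were higher at an unadjusted p under 0.05, where 9.02% of all genes were, 0 were called by DESeq2, and their median log2 fold change was 3.43. The macrophage gene Lyz2 was at 33.4, 13.3 and 171 normalized CPM in WT and 1149.6, 357 and 323 in Aromhum mice, and C1qa had no UMI in WT replicates 2 and 3 and Aromhum replicate 3. Among cells with no UMI of 13 genes of macrophages, muscle fibers and fibroblasts and at most 2 of Dcn, 2 of 16 inflammatory genes tested rose, or 12.5% against 1.83% of all genes in that fit. Il1r1 was among them (log2 fold change 1.22, adjusted p = 0.00889), but C4b did not enter that fit.

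The genes that fell numbered 10, and 2 of them were early response genes. With 1 mouse left out, Chchd10 and Tcf15 passed in 2 of the 6 fits and the other 8 in 1, which for Has1 was that without WT replicate 2 and for the rest that without Aromhum replicate 3. Of 35 immediate early and heat shock genes, which answer stimulation or dissociation stress within minutes, 2 fell and 1 rose, against 0.149% and 1.17% of all genes, with a median log2 fold change of -0.29. Fos was at 4045, 3789 and 3044 normalized CPM in WT and 1907, 1665 and 2390.2 in Aromhum mice (log2 fold change -0.87, SE 0.17, adjusted p = 0.0261). Cyr61, a matricellular protein induced by stretch, was at 731, 865 and 652 normalized CPM in WT and 355, 419.5 and 461 in Aromhum mice (log2 fold change -0.86, SE 0.17, adjusted p = 0.0245). Both were lower in each Aromhum mouse than in any WT mouse. Fosl1, another member of the Fos family, rose, at 12.8, 11.8 and 12.5 normalized CPM in WT and 41.0, 39.9 and 34.1 in Aromhum mice (log2 fold change 1.6, SE 0.28, adjusted p = 0.0135). Fosl1 had so few UMIs in WT mice that it entered the test only through the Aromhum mice. The abundant stress genes Junb, Gadd45b and Hspa8 did not pass, with log2 fold changes of -0.29 (SE 0.18, adjusted p = 0.448), -0.04 (SE 0.19, adjusted p = 0.934) and -0.19 (SE 0.22, adjusted p = 0.718). In endothelial cells Fos was also lower in each Aromhum mouse, at 1932, 2047 and 1824 CPM in WT and 978, 1286 and 1401 in Aromhum mice. So were Cyr61, Tcf15, Id1, Ntf3 and Nrip2, the last at an average of 1.31 CPM. Chchd10, Ldhb, Prkaca and Has1 overlapped there. In pericytes Ldhb, Id1 and Nrip2 were lower in each Aromhum mouse than in any WT mouse, and the other genes that fell overlapped. Ldhb in pericytes was at 273, 206 and 156 CPM in WT and 121, 81.9 and 133 in Aromhum mice. The summed level of the early response list in endothelial cells was 40001 to 45342 CPM in WT and 28383 to 34265 in Aromhum mice.

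Notch receptors and targets had mostly lower values in Aromhum mice, and 1 of them passed. Of 10 Notch genes tested, 1 fell (0.149% of all genes did), none rose, 9 had values below 0, and the median log2 fold change was -0.46. DESeq2 called 2 of them lower. In all genes tested 49.9% had values below 0. Nrip2, a nuclear receptor interacting protein, was at 636, 770.3 and 520.4 normalized CPM in WT and 329.6, 258 and 389 in Aromhum mice (log2 fold change -0.97, SE 0.19, adjusted p = 0.0261). It was the member that passed. Hes1, a repressor that Notch induces, was at 908, 859 and 792 normalized CPM in WT and 312, 275 and 654 in Aromhum mice (log2 fold change -1.04, SE 0.31, adjusted p = 0.152). Hey2, a further repressor of this family, was at 53.9, 45.8 and 47.2 normalized CPM in WT and 18.9, 31.5 and 20.7 in Aromhum mice (log2 fold change -1.08, SE 0.26, adjusted p = 0.055). Neither passed, although every Aromhum mouse was below every WT mouse for both. Nrarp, a feedback inhibitor, was at 224 ± 71.6 normalized CPM in WT and 154 ± 21.4 in Aromhum mice (log2 fold change -0.53, SE 0.22, adjusted p = 0.251), and the receptor Notch3 at 381 ± 60.2 normalized CPM in WT and 323 ± 32.9 in Aromhum mice (log2 fold change -0.24, SE 0.17, adjusted p = 0.522). In endothelial cells Hes1 was also lower, at 547, 630 and 583 CPM in WT and 304, 341 and 393 in Aromhum mice. The summed level of the 20 Notch genes there was 1364 to 1473 CPM in WT and 939 to 1148 in Aromhum mice. In pericytes the sums overlapped, at 1072 to 1504 CPM in WT and 819 to 1183 in Aromhum mice.

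Other genes that fell were Chchd10, Ldhb, Prkaca, Tcf15 and Has1. Chchd10, a protein of the mitochondrial intermembrane space, was at 322, 444 and 334 normalized CPM in WT and 181, 132 and 202 in Aromhum mice (log2 fold change -1.08, SE 0.20, adjusted p = 0.0172). Ldhb, the lactate dehydrogenase subunit that favors lactate oxidation, was at 182 ± 21.1 normalized CPM in WT and 95.9 ± 8.70 in Aromhum mice (log2 fold change -0.92, SE 0.18, adjusted p = 0.0221). Prkaca, the catalytic subunit of protein kinase A, was at 40.6 ± 2.2 normalized CPM in WT and 16.4 ± 1.46 in Aromhum mice (log2 fold change -1.29, SE 0.26, adjusted p = 0.0286). In all 3 the Aromhum level was well under the lowest WT value. Over the other settings, the weakest log2 fold change was -0.38 for Chchd10, -0.165 for Ldhb and -0.90 for Prkaca. They passed in 8 of 17, 7 of 17 and 6 of 16 of those settings. Tcf15, a basic helix-loop-helix factor, was at 282 ± 54.4 normalized CPM in WT and 135 ± 28.9 in Aromhum mice (log2 fold change -1.05, SE 0.20, adjusted p = 0.0221). Has1, a hyaluronan synthase, was at 149 ± 25.8 normalized CPM in WT and 82.6 ± 13.2 in Aromhum mice (log2 fold change -0.85, SE 0.19, adjusted p = 0.0487), and this direction turned to 1.05 (adjusted p = 0.0514) once cells with UMIs of other cell types were left out. The 51 nuclear genes of the respiratory chain mostly had values below 0, but none passed. Of them, 50 had values below 0, against 49.9% of all genes, with a median log2 fold change of -0.43, and 32 were lower at an unadjusted p under 0.05, against 7.57% of all genes, while edgeR with no replicate block and DESeq2 called 0. Cox8a and Cox6c, subunits of cytochrome c oxidase, were at 2061 ± 187 normalized CPM in WT and 1385 ± 249 in Aromhum mice (log2 fold change -0.57, SE 0.16, adjusted p = 0.102) and 1371 ± 267 normalized CPM in WT and 920.1 ± 266 in Aromhum mice (log2 fold change -0.57, SE 0.22, adjusted p = 0.219). Cox4i1 and Uqcrh had log2 fold changes of -0.22 (SE 0.15, adjusted p = 0.492) and -0.27 (SE 0.16, adjusted p = 0.429). Skeletal fiber genes, which come from a tissue rich in mitochondria, had a median of -2.28 over 7 tested, with none called by edgeR, by DESeq2 or at an unadjusted p under 0.05. The mitochondrial percent given above was also lower in Aromhum mice. The part of either in the respiratory chain genes was not tested.

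Of 34 contractile and cytoskeletal genes outside the rule, edgeR with no replicate block and DESeq2 called none, 7 were lower and none higher at an unadjusted p under 0.05, where 7.57% and 9.02% of all genes were, and 29 had values below 0, against 49.9% of all genes, with a median log2 fold change of -0.28. Tagln was at 13164, 11888 and 16235 normalized CPM in WT and 10364, 8367 and 13964 in Aromhum mice (log2 fold change -0.34, SE 0.19, adjusted p = 0.392). Tpm2, a tropomyosin, was at 9411 ± 1833 normalized CPM in WT and 7529 ± 2073 in Aromhum mice (log2 fold change -0.32, SE 0.20, adjusted p = 0.441), and Myl6, a myosin light chain, at 9158 ± 1117 normalized CPM in WT and 7149.8 ± 1621 in Aromhum mice (log2 fold change -0.36, SE 0.17, adjusted p = 0.319). For these genes the WT and Aromhum mice overlapped. Myl9, the regulatory light chain whose promoter stretch is shown above, was at 5647, 5744 and 7181 normalized CPM in WT and 3774, 3031 and 5421 in Aromhum mice (log2 fold change -0.60, SE 0.20, adjusted p = 0.156). Cnn1 had a log2 fold change of 0.38 (SE 0.24, adjusted p = 0.46) and Smtn, smoothelin, -0.66 (SE 0.31, adjusted p = 0.331). Myh11 and Acta2 chose the cells and so carry no test, with Myh11 at 3874 ± 751 normalized CPM in WT and 2861 ± 758 in Aromhum mice and Acta2 at 19843 ± 2598 normalized CPM in WT and 16775 ± 4406 in Aromhum mice. Lmod1 went with Myh11 across the cells, so cells low in other contractile genes may have been left out, and the test does not cover them. Barcodes that failed on Myh11 alone numbered 53 in WT and 45 in Aromhum mice with 2 UMIs. They numbered 73 and 115 with 1 UMI, and 177 and 660 with none. Dcn was at 2268, 3740 and 9652 CPM in these sets.

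The regulators of the contractile program did not pass either. Of 20 smooth muscle transcription factors and cofactors tested, edgeR with no replicate block and DESeq2 called none and 2 were lower at an unadjusted p under 0.05, or 10% against 7.57% of all genes, and the median log2 fold change was -0.03. Myocd, the cofactor that acts at CArG boxes, was at 55.0 ± 13.5 normalized CPM in WT and 52.0 ± 11.8 in Aromhum mice (log2 fold change -0.09, SE 0.24, adjusted p = 0.894), and its partner Srf at 59.2 ± 7.22 normalized CPM in WT and 55.5 ± 21.6 in Aromhum mice (log2 fold change -0.06, SE 0.25, adjusted p = 0.936). Klf4, which opposes them in switched cells, was at 747, 569 and 505 normalized CPM in WT and 654, 671 and 778 in Aromhum mice (log2 fold change 0.21, SE 0.17, adjusted p = 0.579). The genotypes overlapped for all 3. Mef2c, Mef2a and Ebf1 had log2 fold changes of -0.25 (SE 0.19, adjusted p = 0.536), -0.15 (SE 0.17, adjusted p = 0.71) and 0.01 (SE 0.16, adjusted p = 0.981). Among 34 ion channel and calcium handling genes, Abcc9 rose and no other passed, or 2.94% against 1.17% of all genes, with a median log2 fold change of -0.19, and DESeq2 also called Pln lower. Pln, phospholamban, which restrains calcium uptake by the sarcoplasmic reticulum, was at 559, 815 and 402 normalized CPM in WT and 285, 379.6 and 322 in Aromhum mice (log2 fold change -0.85, SE 0.23, adjusted p = 0.099). Atp2a2, the calcium pump it restrains, was at 582 ± 73.5 normalized CPM in WT and 521 ± 74.1 in Aromhum mice (log2 fold change -0.16, SE 0.17, adjusted p = 0.686). Atp2b1, a calcium pump of the cell membrane, was at 236 ± 51.4 normalized CPM in WT and 251 ± 19.3 in Aromhum mice (log2 fold change 0.10, SE 0.19, adjusted p = 0.844). Neither calcium pump passed.

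**Figure D5:**
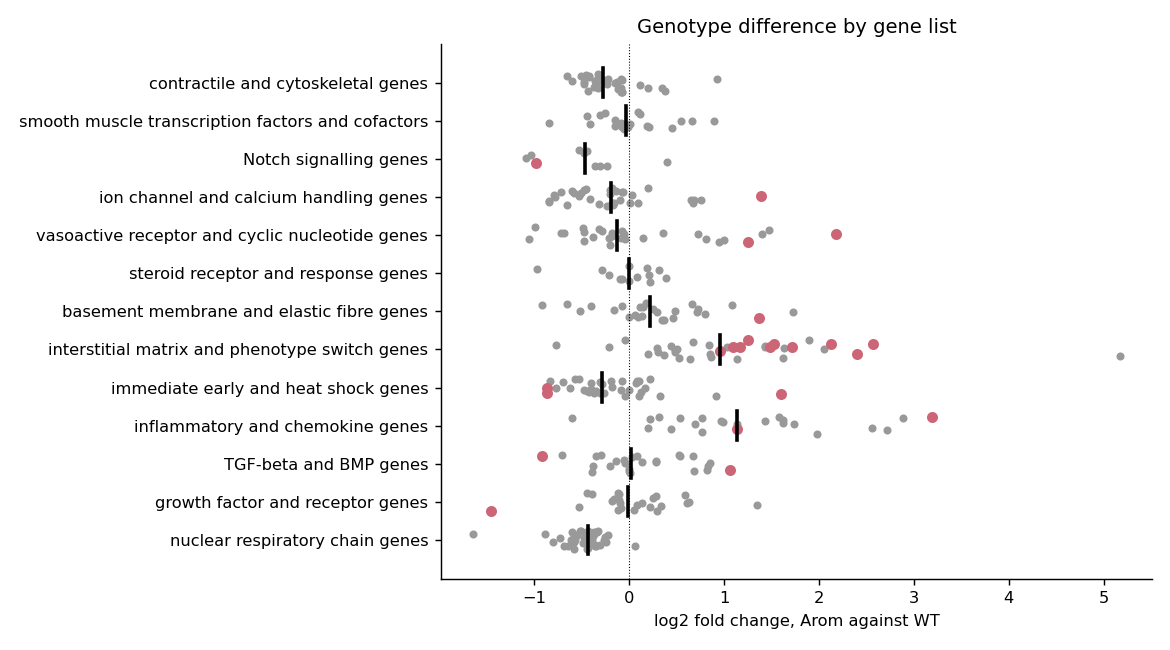
Log2 fold change of Aromhum against WT (horizontal axis) for the tested genes of 13 lists (rows), with genes that passed the test in red, the others in gray and the list median as a black bar. Interstitial matrix and inflammatory genes lay mostly above 0, with medians of 0.96 and 1.13, and contractile and respiratory chain genes mostly below, with medians of -0.28 and -0.43.

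Steroid receptor and response genes did not pass the test in these cells. Of 13 tested, edgeR and DESeq2 called none, none reached an unadjusted p under 0.05, and the median log2 fold change was -0.0013. Esr1, Esr2 and Pgr, the classical estrogen targets and receptors, did not enter the test. The metallothioneins Mt1 and Mt2, which glucocorticoids and metals induce, had log2 fold changes of -0.0013 (SE 0.20, adjusted p = 0.999) and 0.09 (SE 0.23, adjusted p = 0.891). Errfi1 and Sgk1, further hormone-responsive genes, had -0.21 (SE 0.16, adjusted p = 0.553) and 0.39 (SE 0.26, adjusted p = 0.488).

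Among 26 TGF-beta and BMP genes, 1 rose and 1 fell, against 1.17% and 0.149% of all genes, with a median log2 fold change of 0.02. Fstl1, a secreted follistatin-like glycoprotein, was at 115, 142 and 146 normalized CPM in WT and 350.1, 302 and 194 in Aromhum mice (log2 fold change 1.06, SE 0.22, adjusted p = 0.0281). Id1, a target of BMP signaling, was at 314, 305 and 269.8 normalized CPM in WT and 110.4, 162 and 199 in Aromhum mice (log2 fold change -0.91, SE 0.21, adjusted p = 0.0478). These genes parted the genotypes in opposite directions. Id3, Id2 and Tgfb3 did not pass, with log2 fold changes of -0.20 (SE 0.16, adjusted p = 0.567), -0.39 (SE 0.18, adjusted p = 0.301) and -0.05 (SE 0.29, adjusted p = 0.948). Among 24 growth factor and receptor genes, Ntf3 fell and none rose, where 0.149% of all genes fell. Ntf3 encodes neurotrophin-3, which vessels release to guide sympathetic nerves, and was at 41.1, 54.7 and 36.6 normalized CPM in WT and 15.8, 10.5 and 19.5 in Aromhum mice (log2 fold change -1.45, SE 0.30, adjusted p = 0.0304). The insulin-like growth factor binding proteins Igfbp7, Igfbp5 and Igfbp4 had log2 fold changes of 0.25 (SE 0.16, adjusted p = 0.453), -0.11 (SE 0.14, adjusted p = 0.756) and -0.53 (SE 0.17, adjusted p = 0.135), and Pdgfa had 0.22 (SE 0.19, adjusted p = 0.6).

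The other genes with large rises lie outside these lists. Cd44, the cell-surface receptor for hyaluronan, was at 25.7, 29.6 and 39.5 normalized CPM in WT and 230.2, 189 and 96.2 in Aromhum mice (log2 fold change 2.40, SE 0.33, adjusted p = 0.0112). Tmsb4x, thymosin beta 4, which holds actin monomers, was at 1936, 2394 and 2640.4 normalized CPM in WT and 6076, 5982 and 4476 in Aromhum mice (log2 fold change 1.25, SE 0.17, adjusted p = 0.00379) and passed with any 1 mouse left out. Ucp2, a carrier of the mitochondrial inner membrane, was at 10.3, 8.87 and 4.82 normalized CPM in WT and 48.9, 35.7 and 34.1 in Aromhum mice (log2 fold change 2.33, SE 0.35, adjusted p = 0.00734). Every Aromhum mouse exceeded the WT range for each gene. Arhgdib, an inhibitor of small GTPases that is abundant in blood cells, was at 12.8 ± 7.94 normalized CPM in WT and 59.3 ± 13.3 in Aromhum mice (log2 fold change 2.27, SE 0.38, adjusted p = 0.0131). Heg1, a membrane protein of the vessel wall, was at 8.71 ± 3.42 normalized CPM in WT and 39.2 ± 16.4 in Aromhum mice (log2 fold change 2.03, SE 0.41, adjusted p = 0.0261), Cyp4b1, a cytochrome P450, at 8.39 ± 2.88 normalized CPM in WT and 43.1 ± 22.7 in Aromhum mice (log2 fold change 2.27, SE 0.49, adjusted p = 0.0478), and Ubash3b, a tyrosine phosphatase, at 8.07 ± 3.04 normalized CPM in WT and 32.7 ± 5.57 in Aromhum mice (log2 fold change 1.99, SE 0.35, adjusted p = 0.0135). Ucp2, Heg1, Cyp4b1 and Ubash3b had so few UMIs in WT mice that they entered the test only through the Aromhum mice. Heg1 and Cyp4b1 each passed in 1 of the 6 fits with a mouse left out, without Aromhum replicate 3. Of the other named genes that rose, Fosl1, Fbn1, Fstl1 and Lipg also passed in 1 of the 6. Cd44, Arhgdib, Ubash3b, S100a4, S100a6, Abcc9, Col5a1, Col6a1 and Il1r1 passed in 2. Of 6 endothelial markers, 1 rose, where 1.17% of all genes did, and 5 had values below 0, against 49.9% of all genes, 3 of them at an unadjusted p under 0.05, against 7.57%, with a median log2 fold change of -0.64. The gene that rose was Flt1, a receptor for vascular endothelial growth factor, at 20.5, 16.3 and 33.7 normalized CPM in WT and 55.2, 94.4 and 49.9 in Aromhum mice (log2 fold change 1.41, SE 0.31, adjusted p = 0.0478), while the summed level of the list was 757 to 1423 CPM in WT mice and 692 to 886 in Aromhum mice.

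To ask whether the genotype effect differed from that in pericytes, both cell types of each mouse were fitted together and the interaction of cell type and genotype was tested in edgeR, with size factors set across both types. Rgs5, which chose the pericytes, was left out. Of 7117 genes, 48 (0.674%) passed, 36 (0.506%) with a higher log2 fold change in smooth muscle cells and 12 (0.169%) with a lower one. Between genotypes in pericytes alone, 0.645% of 5268 genes passed. Log2 fold changes given for a single cell type come from the fit of that type, and so need not add up to the difference. The count ran from 14 without Aromhum replicate 2 to 107 without Aromhum replicate 3. Tmsb4x was at 8042 ± 651 normalized CPM in WT and 8621 ± 814 in Aromhum mice in pericytes, a log2 fold change of 0.11 against 1.25 in smooth muscle cells (difference 1.08, SE 0.15, adjusted p = 0.00328). Cd44 in pericytes was at 199 ± 46.6 normalized CPM in WT and 249 ± 29.0 in Aromhum mice (difference 1.99, SE 0.29, adjusted p = 0.00328). Both genes were thus high in pericytes of either genotype and rose in smooth muscle cells. S100a6 had 3595 ± 375 normalized CPM in WT and 3886 ± 572 in Aromhum mice in pericytes (difference 0.80, SE 0.15, adjusted p = 0.0152), and Ubash3b 68.6 ± 15.8 normalized CPM in WT and 71.1 ± 8.34 in Aromhum mice (difference 1.90, SE 0.40, adjusted p = 0.0266). Lipg, endothelial lipase, was at 8.80 ± 2.10 normalized CPM in WT and 28.7 ± 3.95 in Aromhum mice in smooth muscle cells (log2 fold change 1.68, SE 0.34, adjusted p = 0.0272) but at 38.2 ± 9.23 normalized CPM in WT and 10.7 ± 2.99 in Aromhum mice in pericytes (difference 3.43, SE 0.53, adjusted p = 0.00459). Lipg had so few UMIs in WT smooth muscle cells that it entered the genotype test there only through the Aromhum mice. Its means moved in opposite directions. Thbd and Ednrb did not pass here, with differences of 1.70 (SE 0.38, adjusted p = 0.0681) and 1.40 (SE 0.32, adjusted p = 0.0702) and log2 fold changes of 1.05 and 0.85 in pericytes. Tpm2 differed the other way, with a log2 fold change of -0.32 in smooth muscle cells and 0.44 in pericytes, neither past the threshold (difference -0.83, SE 0.15, adjusted p = 0.00971). Mt2 had 0.09 and -0.80 (difference 0.93, SE 0.19, adjusted p = 0.0206). Ccl9 and Plek, a chemokine and a leukocyte protein were among the genes with the lowest p, and their differences were 4.29 (SE 0.66) and 3.58 (SE 0.57). In smooth muscle cells Plek was at 9.65, 3.18 and 2.09 normalized CPM in WT and 89.2, 55.9 and 10.4 in Aromhum mice, highest in Aromhum replicate 1, which also had most macrophage RNA. Ccl9 had no UMI in WT replicates 2 and 3 and was at 7.33 CPM in WT replicate 1. It was at 71.7, 26.2 and 3.52 CPM in Aromhum mice, so the genotypes overlapped. The share of smooth muscle cells with an Abcc9 or Higd1b UMI, given above, was higher in Aromhum mice. Its part in the differences from pericytes was not tested.

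Endothelial cells, which share the libraries and their free RNA, were compared in the same way. Of 11910 genes, 66 (0.554%) differed in their genotype effect, 47 (0.395%) with a higher log2 fold change in smooth muscle cells and 19 (0.16%) with a lower one. Between genotypes in endothelial cells alone, 6.59% of 12631 genes passed. The count ran from 27 without Aromhum replicate 2 to 248 without Aromhum replicate 3, and limma voom called 29. Thbd in endothelial cells, its classical site, was at 197 ± 37.3 normalized CPM in WT and 287 ± 16.5 in Aromhum mice, a log2 fold change of 0.56 against 2.72 in smooth muscle cells (difference 2.21, SE 0.25, adjusted p = 0.00225). Ednrb was at 85.9 ± 15.2 normalized CPM in WT and 50.8 ± 22.9 in Aromhum mice in endothelial cells (difference 3.00, SE 0.31, adjusted p = 0.00225). The endothelial means of Ednrb thus ran against those of smooth muscle cells, without passing the test there. Tmsb4x and Cd44 differed here too (difference 1.53, SE 0.16, adjusted p = 0.00635 for Tmsb4x, and 2.29, SE 0.36, adjusted p = 0.0276 for Cd44). Ucp2 was at 92.3 ± 18.9 normalized CPM in WT and 89.5 ± 12.4 in Aromhum mice in endothelial cells (difference 2.35, SE 0.34, adjusted p = 0.00766), and Fosl1 at 105 ± 12.2 normalized CPM in WT and 75.9 ± 17.4 in Aromhum mice (difference 2.09, SE 0.30, adjusted p = 0.00766). Fabp5, a fatty acid binding protein, was at 43.6, 50.3 and 69.4 normalized CPM in WT and 148, 103 and 132 in Aromhum mice in smooth muscle cells (log2 fold change 1.22, SE 0.21, adjusted p = 0.0135) and at 1088 ± 206 normalized CPM in WT and 914 ± 143 in Aromhum mice in endothelial cells (difference 1.46, SE 0.18, adjusted p = 0.00225). Against pericytes, where its log2 fold change was 1.34, the difference for Fabp5 was -0.018 (SE 0.44, adjusted p = 0.998). Arhgdib had a log2 fold change of 0.42 in endothelial cells (difference 1.88, SE 0.39, adjusted p = 0.0423). None of Ucp2, Fosl1, Fabp5 and Arhgdib passed the test between genotypes in endothelial cells. Kank1, an adaptor at cell adhesions, went the other way, with -0.71 in smooth muscle cells and 1.37 in endothelial cells (difference -2.13, SE 0.28, adjusted p = 0.00766), as did Igfbp4, with -0.53 and 0.94 (difference -1.45, SE 0.23, adjusted p = 0.0244).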

How the data were processed

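The deposited table holds raw UMI counts of 16494 genes in 63647 barcodes, made by the authors with Cell Ranger 3.0.2 on mm10 plus human CYP19A1. Barcodes beyond the limits of the study were in it. The members and gene lists were chosen with earlier results of these data known. For each mouse the UMIs of a cell type were summed and tested with edgeR 4.0.16 in R 4.3.3, using TMM scaling, filterByExpr and a robust quasi-likelihood fit. C4b, Col5a3, Ucp2, Heg1, Cyp4b1, Ubash3b, Lipg and Fosl1 were under the limit of this filter on low counts in each WT mouse. They entered the genotype test only through the Aromhum mice, where they were high, as may others that rose. Other settings were RLE scaling, DESeq2 1.42.0, limma 3.58.1 (voom), no filter, a replicate block, leaving out mice or doublets, and other cell limits. Cells with UMIs of other cell types, with an Abcc9 or Higd1b UMI, or in the top 5% of Scrublet scores (scanpy 1.11.5) were left out as settings added after the data were seen. Shares were compared in Python 3.11.15 with exact permutation tests.

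Named genes are those of the rule and the 4 markers, the 12 largest rises and falls among called genes with no overlap and a mean of at least 20 CPM, up to 6 called and the 4 most abundant members of each list, and, for each interaction, called genes among these and the 5 with the lowest p. Others were named after their values were seen. On simulated data the genotype fit recovered 30% of 2-fold and 82% of 4-fold changes over 6683 genes, the fit against pericytes 11% and 55% over 7286 genes, with 8.33% false among its calls, and the fit against endothelial cells 6% and 48% over 11973 genes. The study handled 1 WT and 1 Aromhum mouse on each of 3 dates, but the labels do not tie replicate numbers to dates. Each library is 1 mouse, so the spread is between animals. A few named genes are not reported here.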

Additional observations from a re-analysis of the deposited data

Results flagged for a closer look

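These results stand out because the genotype effect in smooth muscle cells differed from that in another cell type of the same mice by a test of the difference itself, edgeR's interaction of cell type and genotype. Against pericytes 48 genes differed, and against endothelial cells 66. Each difference below is the log2 fold change of Aromhum against WT in smooth muscle cells minus that in the other cell type.

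Against pericytes the difference was 1.08 for Tmsb4x, 1.99 for Cd44, 3.43 for Lipg, 4.29 for Ccl9, 3.58 for Plek, -0.83 for Tpm2, 0.80 for S100a6, 0.93 for Mt2 and 1.90 for Ubash3b. Ccl9 and Plek had too few UMIs to enter the genotype test in smooth muscle cells alone. Both were highest there in Aromhum replicate 1, which had most macrophage RNA. Against endothelial cells it was 2.21 for Thbd, 3.00 for Ednrb, 1.46 for Fabp5, 1.53 for Tmsb4x, -2.13 for Kank1, 2.35 for Ucp2, 2.09 for Fosl1, -1.45 for Igfbp4, 2.29 for Cd44 and 1.88 for Arhgdib. Tmsb4x and Cd44 passed against both cell types. Of the others named against endothelial cells none passed against pericytes, where the difference was 1.70 (SE 0.38, adjusted p = 0.0681) for Thbd, 1.40 (SE 0.32, adjusted p = 0.0702) for Ednrb and -0.018 (SE 0.44, adjusted p = 0.998) for Fabp5.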

How the results depend on the processing

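The number of genes called between genotypes was 88 (78 higher, 10 lower). It was 540 (365 higher, 175 lower) with no filter on low counts, 182 (141 higher, 41 lower) with the replicate block, 4 (2 higher, 2 lower) with at most 10% mitochondrial UMIs, 23 (23 higher, 0 lower) with stricter thresholds, 24 (23 higher, 1 lower) with the rule applied after thinning and 9 (9 higher, 0 lower) in cells with no Abcc9 or Higd1b UMI. With 1 mouse left out it ran from 9 to 326, the higher genes from 9 to 230 and the lower genes from 0 to 96. Against pericytes 144 genes differed with no filter, and 14 to 107 with 1 mouse left out. Against endothelial cells the count was 186 with no filter, 29 with limma voom, 185 with the replicate block and 27 to 248 with 1 mouse left out. The cause was not tested, except that fewer cells and mice enter several of these fits. RLE size factors and DESeq2 kept 84 and 64 of the 88 genes. DESeq2 called 96 genes higher and 14 lower of 6697. It called 4 inflammatory, 2 basement membrane and 13 matrix genes higher in place of 2, 1 and 10. It called 2 Notch and 3 early response genes lower in place of 1 and 2, and no growth factor gene in place of 1.

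The difference in the share of smooth muscle cells turned to 0.0858 percentage points with at most 10% mitochondrial UMIs, and the cause was not tested. The limits of the study on genes and mitochondrial UMIs left no cell in Aromhum replicate 2, so that alternative could not be run. These log2 fold changes turned in sign: with at most 10% mitochondrial UMIs, Notch3 0.41, Klf4 -0.43, Mt2 -0.54 and Sgk1 -0.021, and with no UMI of other cell types, Has1 1.05, Atp2a2 0.023, Atp2b1 -0.15, S1pr3 0.092, Mt1 0.26, Dcn 0.68 and Gadd45b 0.34, and with the rule applied after thinning, Tpm2 0.033, Atp2a2 0.093, S1pr3 0.064, Mt1 0.29, Junb 0.0050, Gadd45b 0.25, Tgfb3 0.25, Cox4i1 0.0066 and Uqcrh 0.034, and with stricter thresholds, Atp2a2 0.071, and with no Abcc9 or Higd1b UMI, Atp2a2 0.019 and Col4a2 -0.088, and with the top doublet scores left out, Dcn 0.54. With 1 mouse left out, Mt1 ran from -0.13 to 0.21 and Mt2 from -0.19 to 0.31. Except for Has1, none of these had passed the test, and the cause was not tested. Whether replicate numbers mark shared dates is not given, and they were not taken as pairs: deviations from the group means correlated by 0.29, -0.16 and 0.22 for replicates 1, 2 and 3 over 2678 genes, and replicates 1 and 3 correlated best with their own number. With the replicate block 3 of 4 macrophage markers were called higher, 2 contractile, 3 respiratory chain and 1 smooth muscle transcription factor gene lower, 1 fibroblast marker higher and 1 lower, and 1 glial marker lower, where the fit without it called no member of these lists, and 6 inflammatory genes rose in place of 2. It also called 1 gene lower in each of the ion channel, vasoactive, matrix and endothelial marker lists, where the fit without it called none lower, 3 early response genes lower in place of 2, and 2 basement membrane genes higher in place of 1. With 3 mice a group and these cells, the simulated recovery of 2-fold changes was incomplete, and a count of 0 for a list does not show that its genes were alike.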

Other observations

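Single smooth muscle cells of a mouse differed in some genes far more than counting would give. After thinning each cell to 1000 UMIs, the ratio of the variance to the mean of a gene's count over the cells of a mouse, which is near 1 for counting alone, was taken for 930 genes with a mean of at least 0.1 UMI in each mouse. Rgs5 had a ratio of 4.86 to 7.75 over the 6 mice and Ccl11, an eosinophil chemokine, 5.07 to 15.8. The fibroblast gene Dcn had 7.44 to 53.0. Among contractile genes outside the rule the ratio was 3.2 to 7.41 for Tagln and 2.65 to 3.39 for Myl9. The metallothionein Mt1 had 4.07 to 7.60 and Mgp, an inhibitor of vascular calcification, 2.96 to 7.14. Each of these ratios held above 1 in every mouse.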
